A study of Rattus norvegicus with 3 samples.

Results

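The Hox genes of rat commissural neurons are described here: every entry of the deposited expression table whose gene symbol is Hox followed by the cluster letter a, b, c or d and a number, in upper or lower case. Of 26353 entries, 47 met this rule. They carry 36 different symbols, because 6 HoxA genes have more than 1 entry. The study measured polyadenylated RNA in 3 libraries, called libraries 1, 2 and 3 by their labels, of rat commissural neurons, which were isolated from embryonic spinal cord at embryonic day 13 and kept in culture for 2 days. All libraries belong to 1 untreated group, with no genotype, strain or drug named and no control or treated group beside it, and the labels do not say how the neurons were separated from other cells. Expression is given in FPKM as deposited, that is, fragment numbers scaled by transcript length and by the fragments mapped in the library. Such values allow levels to be compared between genes per length but do not give a library's depth. The labels name no separate cultures or animals behind the libraries, and the p-values therefore cover the spread between 3 samples that may be technical repeats.

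Hox genes encode homeodomain transcription factors that give cells their position along the head-to-tail axis of the body. In mammals they lie in 4 clusters, HoxA to HoxD, and members at the same place in different clusters form a paralog group, numbered from 1 at the 3′ end of the cluster to 13 at the 5′ end. Low numbers are known to begin at the hindbrain and high numbers near the tail, and in the spinal cord the factors take part in setting the identity of motor neurons and interneurons at neck, forelimb, trunk and hindlimb levels. RNA was taken from whole cultures, so fewer cells with a gene and less RNA of it per cell cannot be told apart.

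The cultures held a block of Hox genes from paralog group 2 to paralog group 9. There was little or no RNA of groups 1 and 10 to 13. Summed levels were highest in groups 8 and 9, mostly through Hoxb8 and Hoxb9. Of the 47 entries, 29 were above 0 in at least 1 library and were tested, and 22 of these, each a different symbol, exceeded 1 FPKM (one-sided limma test, Benjamini-Hochberg adjustment over all 17611 tested entries). Over all tested entries 63.7% did. The median level of the tested Hox entries was 21.3 FPKM, against 4.81 FPKM for all tested entries. Adjusted p of the 22 ran from 1.36e-11 to 1.27e-07 (limma). They covered 22 of the 23 symbols of groups 2 to 9, the exception being Hoxd9 (the Hoxa9 entry is in doubt, as described further on), and none of the 3 symbols of group 1 and the 10 of groups 10 to 13 passed. A further 18 entries, among them all those of 7 symbols, were listed at 0 in each library.

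The libraries were not alike in every respect. Library 2 stood apart: after its difference from the mean of libraries 1 and 3 was centred on the median of all 11218 entries above 1 FPKM (a shift of 0.13 in log2), the 982 genes with the longest spans on the chromosome had a median of -0.14 and the 982 with the shortest spans a median of 0.10 (spans from RefSeq). The commissural axon genes Robo3, Dcc, Boc and Cntn2, and the neuronal genes Tubb3, Stmn2, Dcx and Map2, all lay above 1 FPKM (8 of 8). Of all tested entries 63.7% did. Robo3, which delays the response to midline repellents before crossing, was at 118, 74.5 and 119 FPKM in libraries 1, 2 and 3.

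**Figure D1:**
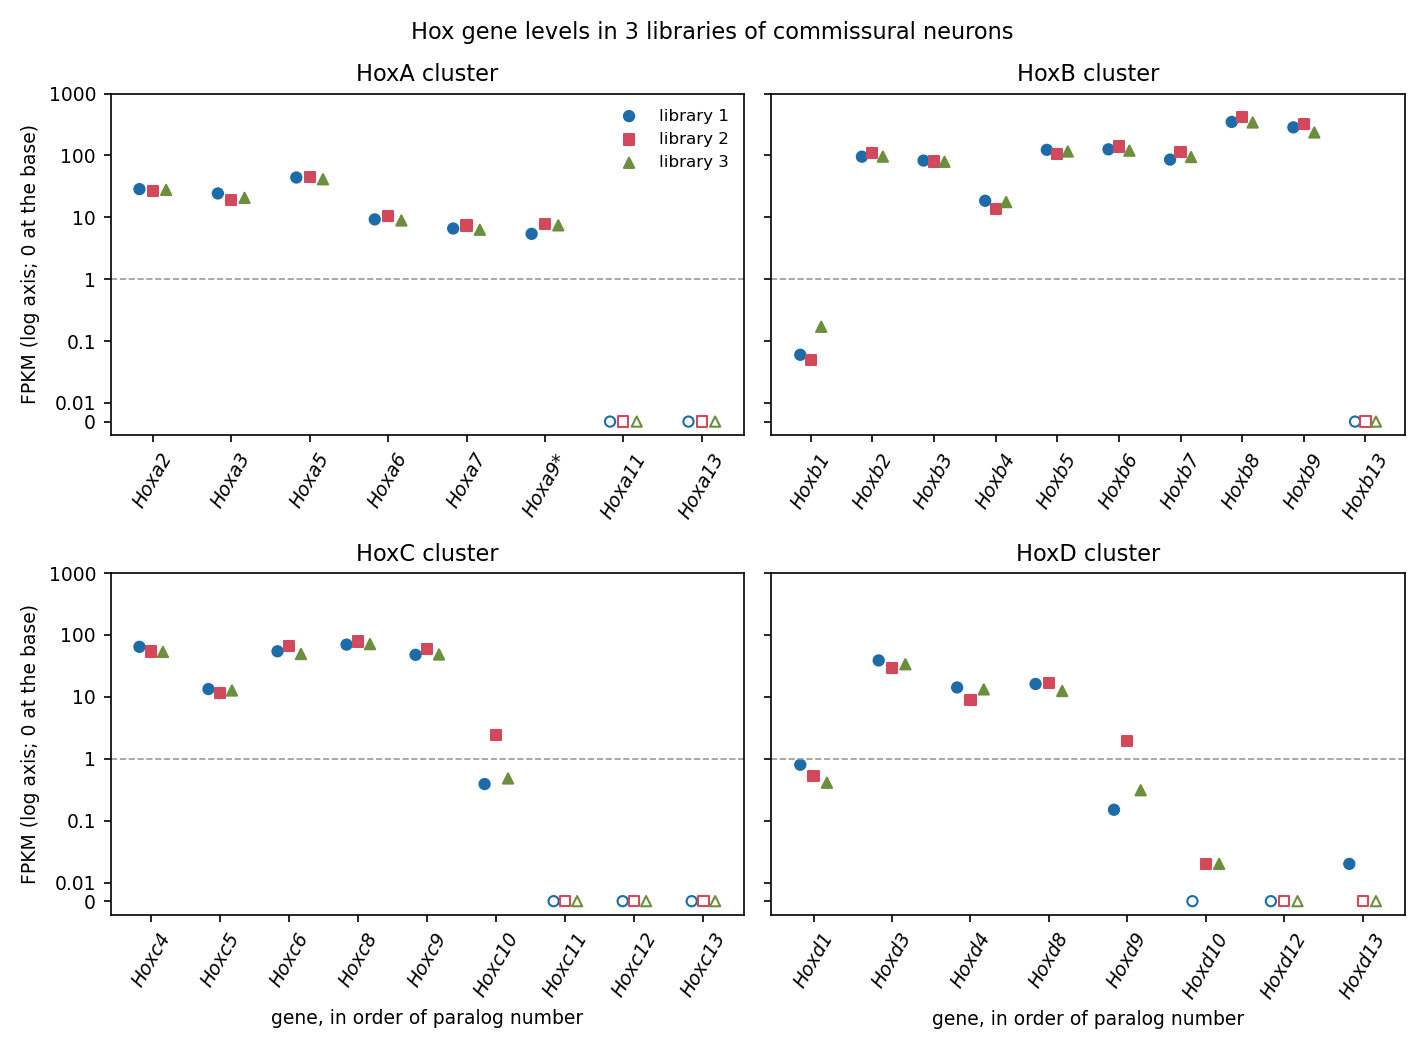
FPKM of Hox genes in each of the 3 libraries (log axis, with open symbols at the base for values listed at 0), by cluster and in order of paralog number. For symbols with several entries the highest is drawn, the star marks the Hoxa9 entry that the table describes as Hox-A7, and the dashed line is 1 FPKM. Hoxb1, Hoxd1, Hoxd9 and the genes drawn from group 10 on lie near 1 FPKM or below it, and the other symbols drawn lie well above the line.

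HoxB held most of the Hox RNA. Its 10 entries summed to 1161, 1306 and 1095 FPKM in libraries 1, 2 and 3, a mean of 73.3% of the summed Hox FPKM. HoxC entries summed to 250.3, 272.8 and 235.1 FPKM (15.6%), HoxA entries to 118.8, 116.9 and 113.0 (7.20%), and HoxD entries to 70.1, 57.7 and 59.96 (3.89%). The ranges of the 4 clusters did not overlap. Of the tested entries, 8 of 9 lay above 1 FPKM in HoxB, 6 of 7 in HoxA, 5 of 6 in HoxC and 3 of 7 in HoxD. Over all tested entries of the table the share was 63.7%. The value for HoxA is less certain than the others, since the table lists much of this cluster in several copies, described further on. It also leaves out an entry described as Hox-A4 (19.8, 12.8 and 18.4 FPKM), which has no symbol and is outside the rule.

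Hoxb8 was the highest Hox gene, at 347.1, 422.9 and 339.9 FPKM in libraries 1, 2 and 3 (370.0 ± 46.0, SD, n = 3). It is a gene of the spinal cord with a known part in dorsal sensory circuits, and it ranked 128th by mean among all entries with a symbol and a description. Hoxb9, its neighbour toward the 5′ end, had 283.9, 322.6 and 234.5 FPKM (280.3 ± 44.1) and was lower than Hoxb8 in each library, with no overlap of their ranges. Both stood clear of every other Hox gene: Hoxb9 exceeded Hoxb6, the next in the order, by 2.27-fold, 2.31-fold and 1.97-fold in libraries 1, 2 and 3.

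The next levels in HoxB lay close together. Hoxb6 had 125.3, 139.6 and 119.3 FPKM, Hoxb5 122.9, 106.0 and 115.4, Hoxb2 95.3, 108.1 and 95.5, and Hoxb7 85.6, 113.0 and 94.1. The ranges of these neighbours in the order overlapped, and Hoxb5 was above Hoxb2 in 2 of 3 libraries, as was Hoxb2 above Hoxb7. Hoxb3 (82.4, 79.7 and 78.7 FPKM) lay below all of them without overlap with Hoxb7. Within the cluster Hoxb4 stood out as low, at 18.5, 13.6 and 17.6 FPKM: Hoxb3 on its 3′ side was 4.46-fold, 5.85-fold and 4.47-fold higher, and Hoxb5 on its 5′ side 6.65-fold, 7.78-fold and 6.56-fold higher. The ends of the cluster were nearly silent. Hoxb1, which marks a single segment of the hindbrain, had 0.06, 0.05 and 0.17 FPKM, and Hoxb13, a gene of the tail end of the axis, was listed at 0 in each library.

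In HoxC, 4 genes had mean levels from 51.9 to 73.2 FPKM. Hoxc8, known for its part at the level of the lower neck and upper trunk, had 69.9, 78.5 and 71.1 FPKM. Hoxc4 had 64.4, 54.1 and 53.2, and Hoxc6, a gene of the forelimb level in motor neurons, 54.5, 66.8 and 49.3 FPKM. Hoxc9, which in motor neurons sets the thoracic program against that of the forelimb level, had 47.8, 59.5 and 48.3 FPKM. Hoxc4 and Hoxc6 overlapped, with Hoxc4 higher in 2 of 3 libraries, and so did Hoxc6 and Hoxc9, with Hoxc6 higher in 3 of 3. Hoxc5 between Hoxc4 and Hoxc6 was low, at 13.4, 11.4 and 12.7 FPKM, 4.82-fold, 4.74-fold and 4.19-fold below Hoxc4.

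The drop at the 5′ side of HoxC was steep. Hoxc10, a gene of the lumbar level in motor neurons, had 0.39, 2.40 and 0.48 FPKM, so that Hoxc9 exceeded it by 123-fold in library 1, 24.8-fold in library 2 and 101-fold in library 3. Hoxc10 did not pass the test (adjusted p = 1.0 in limma), and library 2 was above 1 FPKM while the other libraries were below it. Hoxc11, Hoxc12 and Hoxc13 were listed at 0 in each library.

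HoxD was the lowest cluster, and its drop came earlier. Hoxd3 had 38.8, 29.3 and 33.6 FPKM, Hoxd8 16.2, 16.9 and 12.4 and Hoxd4 14.2, 9.0 and 13.2. Hoxd9 had only 0.15, 1.94 and 0.31 FPKM, and its test gave an adjusted p of 1.0 (limma). Hoxd8 exceeded Hoxd9 by 108-fold, 8.72-fold and 40.1-fold, whereas in HoxB and HoxC the fall from group 8 to group 9 was 1.33 ± 0.114-fold and 1.42 ± 0.0855-fold (mean and SD of 3 libraries). Hoxd1 had 0.80, 0.53 and 0.41 FPKM. Hoxd10 was listed at 0, 0.02 and 0.02, Hoxd13 at 0.02, 0 and 0, and Hoxd12 at 0 in each library.

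The level in HoxD dropped between Hoxd8 and Hoxd9, and of all Hox entries above 1 FPKM Hoxd4 was the lowest in library 2 relative to the other libraries (below). To set these genes side by side, the 250 bases upstream of the 4 are shown, from RefSeq (GRCr8, plus strand, Hoxd4 at chr3:80021636-80021885, Hoxd8 at chr3:80014973-80015222, Hoxd9 at chr3:80007756-80008005 and Hoxd10 at chr3:80001697-80001946), with the homeodomain core TAAT, on either strand, in capitals.
Hoxd4: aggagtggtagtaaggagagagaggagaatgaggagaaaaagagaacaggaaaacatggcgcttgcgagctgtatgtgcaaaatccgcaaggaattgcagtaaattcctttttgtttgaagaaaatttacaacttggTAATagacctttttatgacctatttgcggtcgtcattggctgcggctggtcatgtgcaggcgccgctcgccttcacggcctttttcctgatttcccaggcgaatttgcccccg
Hoxd8: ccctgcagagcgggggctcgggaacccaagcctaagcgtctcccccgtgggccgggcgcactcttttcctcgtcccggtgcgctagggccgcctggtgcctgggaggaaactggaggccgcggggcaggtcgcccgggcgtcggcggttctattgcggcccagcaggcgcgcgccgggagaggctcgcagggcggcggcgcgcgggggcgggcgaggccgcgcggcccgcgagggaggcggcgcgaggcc
Hoxd9: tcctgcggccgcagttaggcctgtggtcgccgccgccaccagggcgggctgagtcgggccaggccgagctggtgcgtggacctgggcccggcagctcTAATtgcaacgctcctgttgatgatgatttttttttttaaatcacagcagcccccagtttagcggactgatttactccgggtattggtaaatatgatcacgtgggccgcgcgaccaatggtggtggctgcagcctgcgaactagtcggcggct
Hoxd10: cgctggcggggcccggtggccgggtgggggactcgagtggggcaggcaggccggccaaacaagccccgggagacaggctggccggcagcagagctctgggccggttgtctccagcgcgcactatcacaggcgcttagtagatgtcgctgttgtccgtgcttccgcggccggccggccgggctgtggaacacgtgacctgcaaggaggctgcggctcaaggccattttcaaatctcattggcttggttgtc
The core occurred once in the windows of Hoxd4 and Hoxd9 and in neither of the windows of Hoxd8 and Hoxd10. G and C made up 47.2% of the window of Hoxd4, 78.8% of that of Hoxd8, 60% of that of Hoxd9 and 67.2% of that of Hoxd10, with 12, 38, 20 and 21 CpG. RefSeq windows were found for 17 of the 36 symbols. The only HoxB window was that of Hoxb1 and the only HoxC window that of Hoxc4. The split by level below therefore holds no HoxB gene above 1 FPKM and leaves out the highest Hox genes. The window of Hoxa9, whose level is in doubt (described further on), was left out of the split by level. The windows of the 8 genes above 1 FPKM had a median of 15.0 CpG and those of 8 not above it a median of 20.5, against 5.0 in 33465 windows of all genes. TAAT was found in 5 of the 8 above 1 FPKM and 3 of the 8 not above it, and in 57.0% of all windows. CCAAT (either strand) was found in 4 of the 8 above and 6 of the 8 not above, and in 34.0% of all windows. A match describes letters only, and the start sites used in these cells are not known.

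HoxA levels were highest in groups 2 to 5. Hoxa5, known from the neck-level cord and the lung, was highest at 43.9, 44.9 and 41.1 FPKM, followed by Hoxa2 at 28.5, 26.5 and 27.7, a gene of the hindbrain and its neural crest. Hoxa3 had 24.3, 18.9 and 20.6 FPKM, Hoxa6 9.25, 10.4 and 8.88 and Hoxa7 6.59, 7.37 and 6.28. Hoxa11 and Hoxa13 were listed at 0 in each library.

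The table holds 20 entries for 9 HoxA symbols, and 13 of these entries were listed at 0. Hoxa2, Hoxa3, Hoxa6, Hoxa9 and Hoxa11 are among those with more than 1 entry; of the first 4, a single entry had values and every copy was at 0. Reads that fit several copies could have been dropped or divided, which the sources do not state, so HoxA levels may be too low. The symbol Hoxa9 stands on 5 entries. Its 1 entry with values (ENSRNOG00000046361: 5.40, 7.82 and 7.40 FPKM) is described in the table as Hox-A7, as is 1 of its copies, and the 3 entries described as Hox-A9 were at 0. RefSeq lists Hoxa9 among the other names of Hoxa7. The entry is kept under its symbol in the counts, but no level of Hoxa9 can be read from it, and its range overlapped that of Hoxa7. Hoxa4, Hoxa10 and Hoxd11 complete the 39 Hox symbols of RefSeq and are no members by the rule. An entry without a symbol described as Hox-A4 had 19.8, 12.8 and 18.4 FPKM and lay above 1 FPKM, and of 3 described as Hox-A10, 1 had 0.18, 0.35 and 0.31 and the others were at 0. Hoxa3 with Hoxa5 and Hoxa6, and Hoxc6 with Hoxc4 and Hoxc5, overlap in their RefSeq gene spans, so reads could be divided between them and their single values are uncertain.

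By paralog group, the summed level was highest in group 8 and near 0 from group 10 on. Group 8 held 28.3% ± 1.25 (SD, n = 3) and group 9 20.9% ± 1.52 of the summed Hox FPKM. Most of this was from HoxB: Hoxb8 made up 80.7% of group 8 and Hoxb9 82.4% of group 9. Groups 5 and 6 followed with 10.6% ± 1.15 and 12.0% ± 0.321. Groups 2 and 3 held 7.87% ± 0.282 and 8.41% ± 0.974, and groups 4 and 7, each between higher neighbours, 5.34% ± 0.870 and 6.43% ± 0.594. The share of group 4 leaves out the entry described as Hox-A4 (19.8, 12.8 and 18.4 FPKM in libraries 1, 2 and 3). Group 1 held 0.103% ± 0.00986 and group 10 0.0652% ± 0.0632. The share of group 10 rests on library 2: it was 0.0244%, 0.138% and 0.0333% in libraries 1, 2 and 3, and its mean without library 2 was 0.0288%. Groups 11 and 12 were listed at 0 throughout, and of group 13 a single value of Hoxd13 was above 0.

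**Figure D2:**
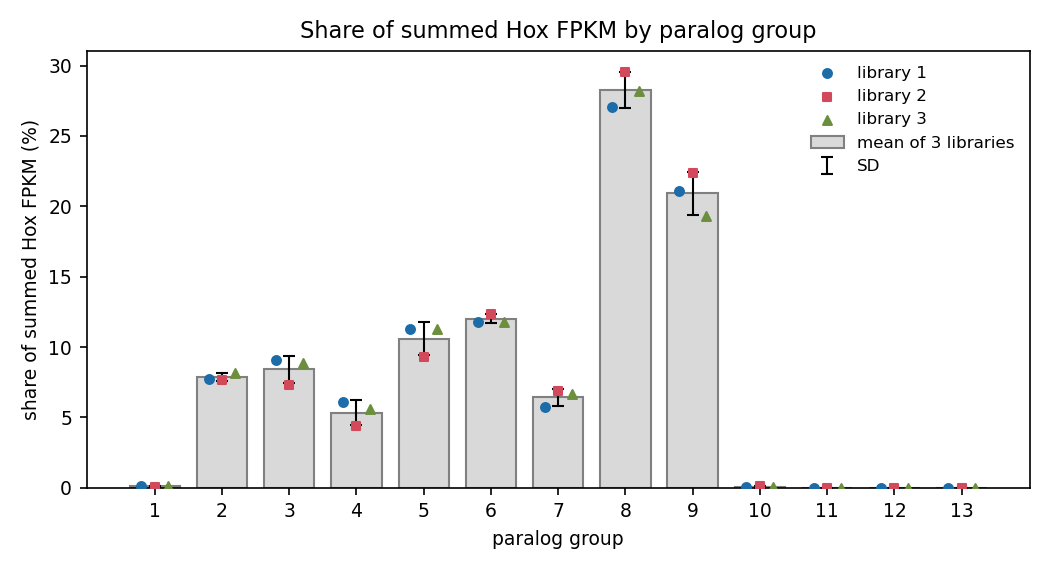
Share of the summed Hox FPKM held by each paralog group, as percent; bars are the mean and whiskers the SD of 3 libraries, and symbols are single libraries. Groups 8 and 9 hold 28.3% and 20.9%, and groups 1 and 10 to 13 stay near 0.

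The HoxB member led in each paralog group from 2 to 9 with the exception of group 4. Hoxb8 exceeded Hoxc8 by 5.05 ± 0.310-fold (SD over 3 libraries) and Hoxd8 by 24.6 ± 2.95-fold, and Hoxb9 exceeded Hoxc9 by 5.40 ± 0.545-fold. Hoxb7 exceeded Hoxa7 by 14.4 ± 1.27-fold, Hoxb6 exceeded Hoxc6 by 2.27 ± 0.167-fold, Hoxb5 exceeded Hoxa5 by 2.66 ± 0.256-fold, and Hoxb2 exceeded Hoxa2 by 3.62 ± 0.399-fold. The ratio to Hoxa7 is uncertain, since the Hoxa9 entry described as Hox-A7 overlapped Hoxa7 in level and is not counted in it. HoxA levels may be too low, as described above, and the ratios to HoxA genes would then be too high. In group 3 Hoxb3 exceeded Hoxd3 by 2.40 ± 0.302-fold. In group 4 Hoxc4 led, 3.49 ± 0.474-fold above Hoxb4 and 4.86 ± 1.03-fold above Hoxd4. These 10 pairs did not overlap, and each difference held in 3 of 3 libraries; with 3 libraries an exact two-sided sign-flip test cannot go below p = 0.25, so no test of the pairs was made. Of the 21 pairs of neighbours in the order of all 22 entries above 1 FPKM, 10 overlapped in their ranges.

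The levels of library 2 relative to the other libraries differed between low and high paralog groups, without an even rise along the number. With the difference of library 2 from libraries 1 and 3 centred as above, the 11 entries of groups 6 to 9 were all higher in library 2, by 0.03 to 0.24 in log2 with a median of 0.17, and 10 of the 11 entries of groups 2 to 5 were lower, with a median of -0.30 and a range from -0.73 to 0.05. The lowest differences were those of Hoxd4 (-0.73), Hoxb4 (-0.53), Hoxd3 (-0.43) and Hoxa3 (-0.38), and the highest those of Hoxc6 (0.24), Hoxb7 (0.20) and Hoxb9 (0.19). The quartiles of all entries above 1 FPKM were -0.15 and 0.11. The entry described as Hox-A4, outside the rule, was also lowest in library 2, and the 2 genes just beyond the edge, Hoxc10 and Hoxd9, were highest there. Across the 22 entries, the difference had a Pearson's r of 0.68 and a Spearman's rho of 0.74 with the paralog number. The difference between libraries 1 and 3, centred likewise, had -0.26 and -0.21. After this centring 11 of 11 entries of groups 2 to 5 and 7 of 11 of groups 6 to 9 were higher in library 1. In uncentred FPKM Hoxb2 was nearly level, at 95.3 in library 1 and 95.5 in library 3. Members share libraries and clusters and are no replicates, so no p is given. The split between groups 5 and 6 was chosen after these values were seen. On either side of it the difference did not rise evenly with the number. Hoxa2 (-0.22) and Hoxb2 (0.05) of group 2 lay above Hoxc4 (-0.24), Hoxb4 and Hoxd4 of group 4. Within groups 6 to 9 the highest value was that of Hoxc6 and the lowest that of Hoxc8 (0.03). Group 9 had 0.17 (the Hoxa9 entry), 0.19 (Hoxb9) and 0.18 (Hoxc9), above all others of these groups except Hoxc6 and Hoxb7.

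In FPKM, the summed level of groups 6 to 9 was 1.92-fold that of groups 2 to 5 in library 1, 2.49-fold in library 2 and 1.95-fold in library 3. Members with short gene spans were also looked at, with differences centred on the median of all entries as before. In 14 entries the span was as short as those of the 982 shortest genes. Of these, 6 of 7 of groups 2 to 5 were lower in library 2 (median -0.24) and 7 of 7 of groups 6 to 9 higher (median 0.17). The 982 shortest genes themselves had a median of 0.10, and Hoxa6 (0.06) and Hoxc8 (0.03) lay below it. The part of gene span in the pattern was not tested. Among all entries outside HoxA, 7 of 8 of groups 2 to 5 were lower and 8 of 8 of groups 6 to 9 higher. Against library 1 alone the median of groups 6 to 9 was 0.05, with 10 of 11 above 0, and against library 3 alone it was 0.15, with 10 of 11 above 0. Of groups 2 to 5, 10 of 11 were below 0 against library 1 alone and 9 of 11 against library 3 alone. Of the 4 commissural axon genes, Robo3, Dcc and Cntn2 were also lower in library 2. Boc was not, at 15.0, 15.7 and 15.1 uncentred FPKM in libraries 1, 2 and 3. The part of these genes in the Hox pattern was not tested. The stretch of cord taken for each library is not given in the sources used here.

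**Figure D3:**
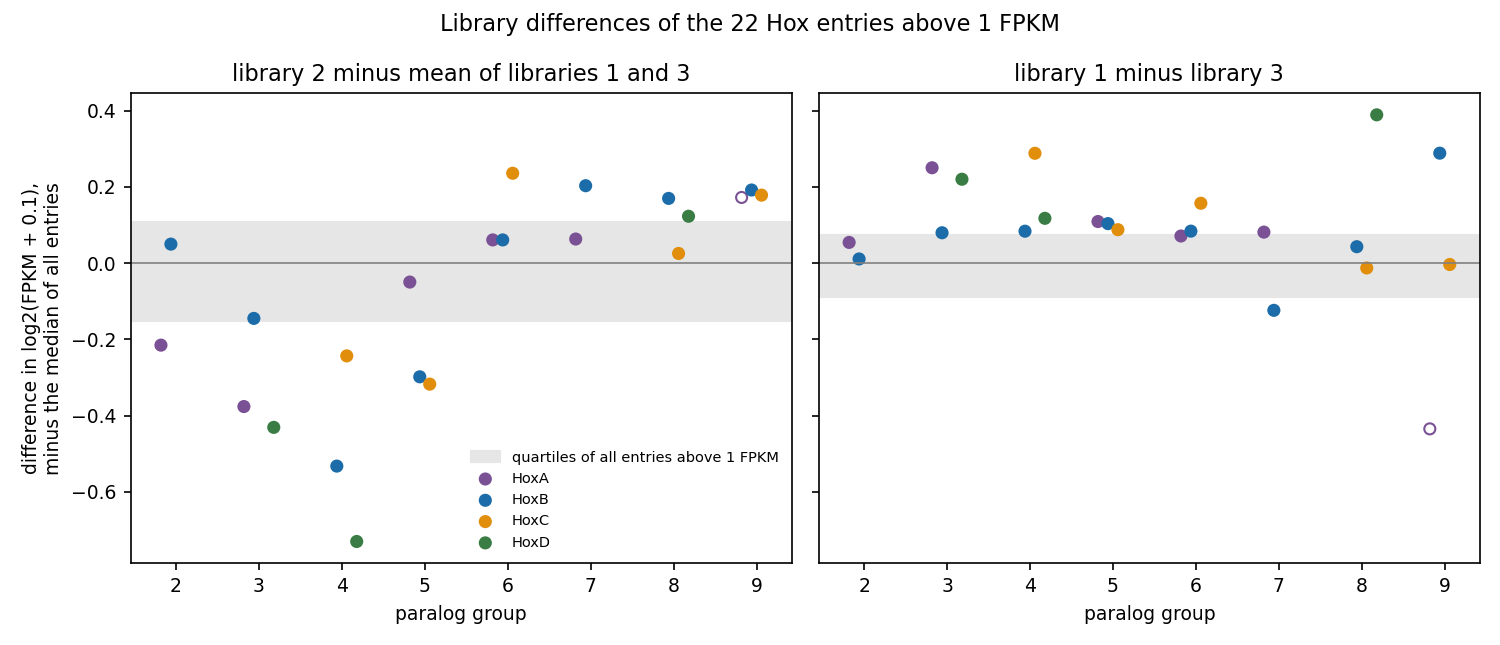
Difference in log2(FPKM + 0.1) between libraries for the 22 Hox entries above 1 FPKM against paralog group, minus the median of all entries above 1 FPKM; left, library 2 minus the mean of libraries 1 and 3, right, library 1 minus library 3. Colours give the cluster, the open circle is the Hoxa9 entry described as Hox-A7, and the grey band runs from the lower to the upper quartile of all entries above 1 FPKM. On the left all entries of groups 6 to 9 lie above 0 and 10 of 11 of groups 2 to 5 below; on the right 11 of 11 of groups 2 to 5 and 7 of 11 of groups 6 to 9 lie above 0.

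The spread between libraries was described without a test. The median SD of log2 values was 0.16 for the 22 entries and 0.13 for all entries above 1 FPKM. Hoxb3 (0.03) and Hoxa2 (0.05) varied least and Hoxd4 most (0.35).

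Partners that bind DNA together with Hox factors had RNA above 1 FPKM. Pbx, Meis and Pknox (Prep) proteins are homeodomain partners that raise the selectivity of Hox binding, and 9 of the 9 genes on the list lay above 1 FPKM in limma's test, where 63.7% of all tested entries did. Pbx3 had 125.4, 132.8 and 126.6 FPKM and Meis2 103.8, 99.96 and 97.2. Pbx4 was lowest, at 1.95, 1.71 and 1.73. Pbx3 was the highest of the list in each library.

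Of the Cdx and early posterior genes, which switch on trunk and tail Hox genes in the early embryo, 1 of 6 lay above 1 FPKM. This was Gdf11, a secreted signal of the trunk-to-tail transition, at 22.6, 26.1 and 20.2 FPKM. Cdx1, Cdx2 and Cdx4 were listed at 0 in each library, Tbx6 at 0.05 in each, and T, a gene of the early mesoderm and notochord, had 0.18, 0.04 and 0.04. Of the 4 hindbrain regulators, 1 passed. Both counts stand beside 63.7% of all tested entries. Egr2, which acts on Hoxa2 and Hoxb2 in the hindbrain, had 0.07, 0.08 and 0.06 FPKM, beside 27.6 ± 1.02 for Hoxa2 and 99.6 ± 7.32 for Hoxb2.

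**Figure D4:**
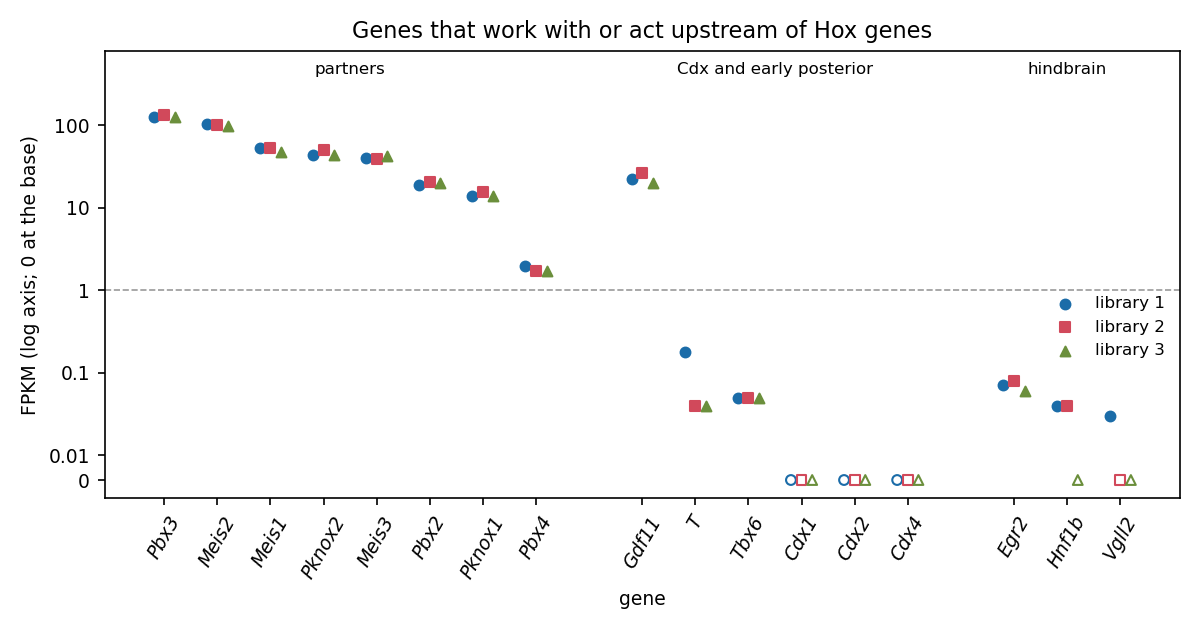
FPKM in each of the 3 libraries (log axis, open symbols at the base for values listed at 0) of partners of Hox proteins, Cdx and early posterior genes and hindbrain regulators; the dashed line is 1 FPKM. The partners drawn all lie above the line, and of the other genes drawn Gdf11 does.

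Polycomb proteins hold Hox genes off outside their domain, and 11 of 12 of their genes lay above 1 FPKM, beside 63.7% of all tested entries: Rnf2 had 58.4 ± 3.11, Bmi1 46.4 ± 2.66 and Ezh2 37.0 ± 1.76 FPKM (SD, n = 3), and Cbx7, the exception, 0.587 ± 0.0416. Trithorax-type activators, which hold them on, passed in 8 of 8 cases, with Kdm6b at 31.0 ± 2.43, Ash2l at 25.2 ± 2.01 and Men1 at 23.97 ± 1.76 and Kdm6a lowest at 8.05 ± 0.813 FPKM. CTCF and cohesin, which separate chromosome domains within the clusters, passed in 4 of 4, with Rad21 at 70.1 ± 2.40, Smc3 at 40.8 ± 0.291, Smc1a at 35.4 ± 1.11 and Ctcf at 30.2 ± 1.28.

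Of 12 genes that flank the clusters 11 were matched and 10 lay above 1 FPKM, again beside 63.7% of all tested entries. Cbx1 had 66.4 ± 6.76, Mtx2, beyond the 3′ end of HoxD, 42.7 ± 4.94 and Cbx5 38.7 ± 2.64 FPKM, and Skap1 was lowest at 0.117 ± 0.0586. Evx2, next to Hoxd13, had 3.28, 2.10 and 3.47 FPKM and Evx1, next to Hoxa13, 1.81, 1.88 and 1.40; both are genes of V0 interneurons and passed, although Hoxd13 and Hoxa13 were at or near 0.

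Markers of other body regions and tissues that could bring Hox RNA of their own were mostly at or near 0. None of the 4 forebrain and midbrain, 4 limb bud, 4 somite and muscle and 4 motor neuron genes exceeded 1 FPKM (limma). The share over all tested entries was 63.7%, and unadjusted limma p was under 0.05 for 0 of these genes. Their summed levels ranged over the 3 libraries from 0.04 to 0.13, 0.02 to 0.11, 0.05 to 0.15 and 0.55 to 0.63 FPKM, with Otx2, Tbx5, Pitx1, Meox1, Myf5, Mnx1 and Isl2 listed at 0 in each library. Of the neural crest and sensory ganglion list 1 of 4 passed, while Sox10 was at 0, 0.03 and 0, and the summed level of the list ranged from 4.90 to 8.17 FPKM. Of the kidney and gut list 1 of 4 passed, Pax8, which spinal interneurons also express, at 21.2, 30.0 and 25.1 FPKM, with Wt1 at 0, 0.02 and 0. The summed level of the neural crest list was lowest and Pax8 highest in library 2, and their part in the Hox differences of that library was not tested.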

How the data were processed

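RNA of 3 libraries of 1 group was analysed. Libraries were stranded, poly(A)-selected and read as pairs of 50 bp, per the labels' protocols. FastQC, Trimmomatic 0.22, STAR and the build rn6 are named in the submitters' processing notes; for the FPKM step, the tool, annotation, use of strand and handling of multi-mapped reads are not given in the sources. FPKM values, 1 column per library and no counts, were deposited by the authors, so depth is unknown and no counting intervals were made. Summed FPKM was 25032100, 19897900 and 26236600, and without entries above 10000 FPKM it was 433285, 477484 and 430187.

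Tests used log2(FPKM + 0.1). Entries at 0 in every library were left out, and the other 17611 were tested one-sided against 1 FPKM with limma 3.58.1 (R 4.3.3, statmod 1.5.0; robust prior, mean-variance trend), with Benjamini-Hochberg adjustment over all of them at 0.05. On simulated data with 17611 entries, 49 of 50 at 1.5 FPKM and 1 of 50 at 1 FPKM were called. The simulated libraries were independent, and the spread of each entry was set by its level alone. Entries with a large spread, such as Hoxc10 (SD of log2 values 1.29) and Hoxd9 (1.58), are not covered by it. Members and lists were chosen with earlier results of these data known. Hox entries are named, and of other lists the 3 highest and the lowest (all of lists of up to 4), except that markers of other tissues are given mainly as counts and that some genes are counted but not reported singly or drawn here. Of list genes with several entries the highest was taken. Windows upstream of genes and gene spans came from RefSeq (GRCr8), matched by symbol. Alternatives covered pseudocount, scaling, filter, level, prior and each library left out. Python 3.11.15 with pandas 2.3.3 was used for summaries and matplotlib 3.10.9 for figures.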

Additional observations from a re-analysis of the deposited data

How the results depend on the processing

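The number of Hox entries above 1 FPKM was 22 or 23 under every alternative run: pseudocounts of 0.01 and 1, a common sum or a common upper quartile for the libraries, no filter or a mean of at least 0.1 FPKM, levels of 0.5 and 5 FPKM, another prior, and each library left out (22 in each case). It was 23 at a level of 0.5 FPKM and when each library was rescaled so that entries up to 10000 FPKM had a sum of 1000000, a setting chosen after seeing the data. The 44 genes above 1 FPKM on the lists of partners, regulators and flanking genes were 39 at a level of 5 FPKM and 44 otherwise. This rescaling raised the cluster sums to 260.6 for HoxA, 2653 for HoxB, 565.1 for HoxC and 140.7 for HoxD without changing their order; no other setting moved a sum by more than its SD. The median difference of library 2 in groups 6 to 9 fell from 0.17 to 0.05 when library 3 was left out, and that in groups 2 to 5 was -0.36 without library 3 and -0.24 without library 1. Centring on all genes takes out any rescaling of a library, except through the pseudocount. No paired analysis was possible because the series has a single group. The unknown depth limits what values near or below 1 FPKM, such as those of Hoxd9 and Hoxc10, can show. Both genes also differed between libraries and were above 1 FPKM in library 2 only.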

Other observations

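Genes for microRNAs that lie inside the Hox clusters are also in the table. Mir10a, Mir10b, Mir196a, Mir196b, Mir196c and Mir615 were listed at 0 in each library in all 8 of their entries; the libraries were made from polyadenylated RNA.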
